A study of Mus musculus with 57 samples.

Results

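The genes described here are 10 macrophage genes, *Adgre1*, *Csf1r*, *Cd68*, *C1qa*, *C1qb*, *C1qc*, *Lyve1*, *Cd163*, *Mrc1* and *Lyz2*, taken by symbol from a list that was chosen with earlier results of these data known. All 10 were found among the 25416 genes of the acute table and the 54658 genes of the chronic table, and all 10 had enough counts to be tested in both. The healthy heart holds macrophages that were seeded before birth and renew themselves locally, and others that are replaced from blood monocytes. They clear dying cells and debris, and they depend on the receptor CSF1R and its ligands CSF1 and IL-34. Resident cells that carry the scavenger receptors LYVE1, CD163 and MRC1 lie mainly along vessels, whereas cells that entered more recently carry more CCR2 or MHC class II.

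Hearts of wild-type male C57BL6/J mice were sequenced to ask whether nicotinamide mononucleotide (NMN), a precursor of NAD+, limits the harm that the anthracycline doxorubicin (Doxo) does to the heart. In the acute study, mice bought at 9 weeks of age were given vehicle (Ctrl, 14 hearts), 1 intraperitoneal injection of 20 mg/kg Doxo (13 hearts), or that dose together with 180 mg/kg NMN injected daily (Doxo-NMN, 13 hearts), and hearts were taken at day 5. In the chronic study, mice of 14 to 16 weeks were given vehicle (5 hearts), 5 injections of 4 mg/kg Doxo (6 hearts), or that course with 500 mg/kg NMN per day in drinking water (6 hearts), and hearts were taken at day 60. NMN was started before Doxo in both studies, no group got NMN without Doxo, and hearts came from mice alive on the day of collection.

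Total counts were 32409622 to 52102850 per acute heart and 17769886 to 23862287 per chronic heart, so 3 counts amount to at most 0.0926 CPM (a count scaled to its heart's total) in the acute and 0.169 CPM in the chronic study. CPM of genes given here are TMM-scaled in addition. The lowest count of any of the 10 genes in any heart was 38. Markers of cardiomyocytes, the muscle cells of the heart, were abundant in each heart, but less so in some acute Doxo hearts, where they summed to 26682 to 70700.2 CPM, against 54213 to 68086 in Ctrl and 34434 to 77557 CPM in Doxo-NMN hearts. In acute Doxo vs. Ctrl 1 of these 6 genes was called higher and 2 lower, beside 14.7% and 15.4% of all tested genes. The call is defined with the results, and the part of these 6 genes in the macrophage values was not tested. A pair of Doxo libraries stood apart in a list of antigen presentation genes, mostly of MHC class II. These summed to 138 CPM in acute Doxo replicate 6, within the Ctrl range of 119 to 246 CPM, against 6.57 to 33.4 CPM in the other 12 Doxo hearts. They summed to 25.04 CPM in chronic Doxo replicate 2, against 129.7 to 194 CPM in the other 5. Acute hearts also differed in atrial transcripts, with *Myl4* at 100 CPM or more in 8 Ctrl, 5 Doxo and 4 Doxo-NMN hearts and lower in the other 6, 8 and 9. In bulk heart RNA, fewer macrophages and less RNA per macrophage cannot be told apart.

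Macrophage promoters often hold the core that the myeloid factor PU.1 and other ETS factors bind, of which the 7 letters AGGAAGT are one form. Upstream sequence from RefSeq (GRCm38.p6) matched 6 of the 10 genes, *Mrc1*, *C1qb*, *C1qc*, *Cd163*, *Lyz2* and *Cd68*, and none was at hand for *Adgre1*, *Csf1r*, *C1qa* and *Lyve1*. The letters were searched on both strands in the 250 bases before the RefSeq start, where 4 of the 6 genes held them, as did 7.69% of 32851 RefSeq promoters. These 4 are shown because they set *Lyz2*, which fell in acute Doxo hearts, beside *C1qb*, *C1qc* and *Mrc1*, which did so less or did not pass the test. Capitals mark the motif, which read on the opposite strand in all 4, sequences run 5′ to 3′ on the strand of the gene, and bases that GENCODE counts as transcribed are left off.
*Lyz2*, chr10:117282322-117282522, minus strand: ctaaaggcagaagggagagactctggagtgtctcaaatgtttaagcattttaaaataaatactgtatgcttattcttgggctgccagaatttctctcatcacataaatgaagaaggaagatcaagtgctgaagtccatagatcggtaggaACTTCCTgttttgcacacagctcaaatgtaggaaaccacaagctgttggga
*C1qb*, chr4:136886201-136886450, minus strand: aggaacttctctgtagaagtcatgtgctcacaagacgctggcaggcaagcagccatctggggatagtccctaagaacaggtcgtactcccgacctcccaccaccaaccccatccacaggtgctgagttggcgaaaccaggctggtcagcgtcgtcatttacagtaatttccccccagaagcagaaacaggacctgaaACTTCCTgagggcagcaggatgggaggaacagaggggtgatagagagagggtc
*C1qc*, chr4:136893066-136893164, minus strand: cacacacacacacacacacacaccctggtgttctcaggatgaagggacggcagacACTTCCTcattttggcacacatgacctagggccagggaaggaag
*Mrc1*, chr2:14229164-14229391, plus strand: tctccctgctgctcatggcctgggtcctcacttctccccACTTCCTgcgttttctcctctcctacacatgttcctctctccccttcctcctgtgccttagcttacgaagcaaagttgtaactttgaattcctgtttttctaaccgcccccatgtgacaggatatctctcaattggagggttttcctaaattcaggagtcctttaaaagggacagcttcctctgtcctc
The first letter of the motif stood 100 bases before the RefSeq start in *Lyz2*, 53 in *C1qb*, 195 in *C1qc* and 211 in *Mrc1*. *Cd68* and *Cd163* did not hold these letters in this window. A match of letters is a description and not a binding site.

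The C1q chains lie side by side on the minus strand of chromosome 4 (GRCm38), *C1qb* (ENSMUSG00000036905) at 136880129 to 136886187, *C1qc* (ENSMUSG00000036896) at 136889804 to 136893065 and *C1qa* (ENSMUSG00000036887) at 136895917 to 136898803. *Adgre1* (ENSMUSG00000004730) lies on the plus strand of chromosome 17 at 57358691 to 57483527, *Csf1r* (ENSMUSG00000024621) on the plus strand of chromosome 18 at 61100598 to 61132149, and *Lyz2* (ENSMUSG00000069516) on the minus strand of chromosome 10 at 117277331 to 117282321. *Cd68* (ENSMUSG00000018774) is on the minus strand of chromosome 11 at 69664213 to 69666153 and *Cd163* (ENSMUSG00000008845) on the plus strand of chromosome 6 at 124304656 to 124330527. *Mrc1* (ENSMUSG00000026712) is on the plus strand of chromosome 2 at 14229392 to 14332057, and *Lyve1* (ENSMUSG00000030787) on the minus strand of chromosome 7 at 110850607 to 110863239. All are protein-coding. Of the 5774 exon bases of *Csf1r*, 873 (15.1%) overlap exons of *Hmgxb3* on the opposite strand, where reads can be told apart only with strand, which is not stated for the counting. *Hmgxb3* had a log2 fold change of −0.062 (adjusted p = 0.341) in acute Doxo vs. Ctrl and of 0.24 (adjusted p = 0.00106) in Doxo-NMN vs. Doxo.

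Per kb of exon, *Lyz2*, which encodes the lysozyme of macrophages and other myeloid cells, had the highest level in acute Ctrl hearts at 98.97 ± 13.7 CPM per kb (mean ± SD, n = 14). The C1q chains, which form the recognition part of the classical complement pathway, came next with 36.6 ± 3.69 CPM per kb for *C1qa*, 34.1 ± 3.56 for *C1qb* and 16.6 ± 1.76 for *C1qc*. *Lyve1*, a hyaluronan receptor shared by macrophages and lymphatic endothelium, stood at 11.4 ± 2.93 and *Csf1r* at 7.42 ± 1.15 CPM per kb. *Cd163*, the receptor for haemoglobin bound to haptoglobin, had 5.92 ± 1.34 and *Mrc1*, the mannose receptor, 5.26 ± 1.17 CPM per kb. *Cd68*, a glycoprotein of the lysosome membrane, had 4.46 ± 0.536 and *Adgre1*, which encodes F4/80, 3.66 ± 0.655 CPM per kb. In this order *C1qa* and *C1qb*, and each neighbouring pair from *Lyve1* down to *Adgre1*, did not differ beyond their spread (mean ± SD). *Lyz2* was first and *Adgre1* last in all 6 groups. *Csf1r* was at rank 6 in acute Ctrl hearts and at rank 9 in acute Doxo hearts (3.52 ± 1.16 CPM per kb), where *Cd68* was at rank 6 (6.09 ± 2.44).

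**Figure D1:**
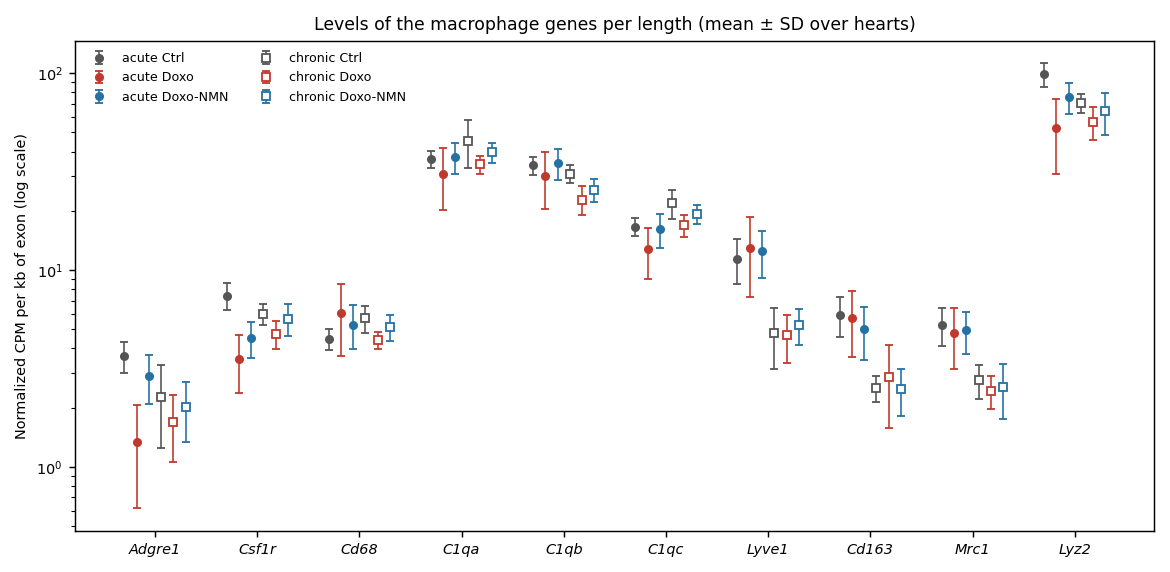
Mean normalized CPM per kb of exon (y axis, log scale) with SD for the 10 genes (x axis) in the 6 groups, filled circles for acute and open squares for chronic hearts. *Lyz2* is highest and *Adgre1* lowest in every group, and *Lyve1* sits at 11.4 CPM per kb in acute and 4.803 CPM per kb in chronic Ctrl hearts. The studies differ in mouse supplier, age, day of collection and sequencing site, which cannot be told apart.

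In acute Doxo hearts *Adgre1*, *Csf1r* and *Lyz2* were lower than in Ctrl hearts, at 0.369, 0.475 and 0.532 times the Ctrl level. They were 3 of the 10 genes called, that is, with an adjusted p-value below 0.05 together with at least a 1.5-fold change, and no gene was called higher. Of all 14240 tested genes 30.1% were called in either direction and 15.4% were called lower. The 3 of 10 are near the share called in either direction. All 3 were lower, and whether 3 of 10 differ from the 15.4% was not tested. On the adjusted p-value alone 5 of the 10 passed, beside 68.1% of all, since *C1qc* fell and *Cd68* rose by less than 1.5-fold. *C1qa*, *C1qb*, *Lyve1*, *Cd163* and *Mrc1* did not pass. The median log2 fold change was −0.21 over the 10 genes and −0.0016 over all tested genes, and 8 of the 10 were below 0, beside 50.1% of all.

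*Adgre1*, an adhesion receptor and the standard surface marker of mouse macrophages, ranged from 8.505 to 16.1 CPM in Ctrl hearts (median 11.5) and from 1.31 to 9.12 CPM after Doxo (median 4.399). In 12 of 13 Doxo hearts it lay below every Ctrl heart, and the exception was replicate 6. Its log2 fold change was −1.44 (SE 0.207, adjusted p = 1.68e-07) with all hearts and −1.57 without replicate 6.

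*Csf1r*, the receptor tyrosine kinase that macrophages need to survive, ranged from 32.6 to 51.8 CPM in Ctrl hearts (median 43.1) and from 12.5 to 33.2 CPM after Doxo (median 18.2). Again 12 of 13 Doxo hearts lay below every Ctrl heart, all but replicate 1. It fell by 1.07 on the log2 scale (SE 0.129, adjusted p = 5.70e-09), and by 1.14 without replicate 6.

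*Lyz2* ranged from 105 to 156 CPM in Ctrl hearts (median 128) and from 17.7 to 112 CPM after Doxo (median 76.5), with all Doxo hearts but replicate 1 below every Ctrl heart. Its log2 fold change was −0.91 (SE 0.162, adjusted p = 6.35e-06), and −0.97 without replicate 6. Neutrophils also carry *Lyz2*, and all 9 tested genes of a neutrophil list of 11 were called higher in the same hearts, beside 14.7% of all tested genes. The list summed to 2.73 to 8.499 CPM in Ctrl (median 4.17) and 4.44 to 382 CPM in Doxo hearts (median 19.8). The part of neutrophils in the *Lyz2* values was not tested. *Lyz1*, a paralog whose reads may be shared with *Lyz2*, had a Ctrl median of 4.43 CPM and a log2 fold change of −0.98 (adjusted p = 4.63e-06), so *Lyz2* values carry that uncertainty.

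**Figure D2:**
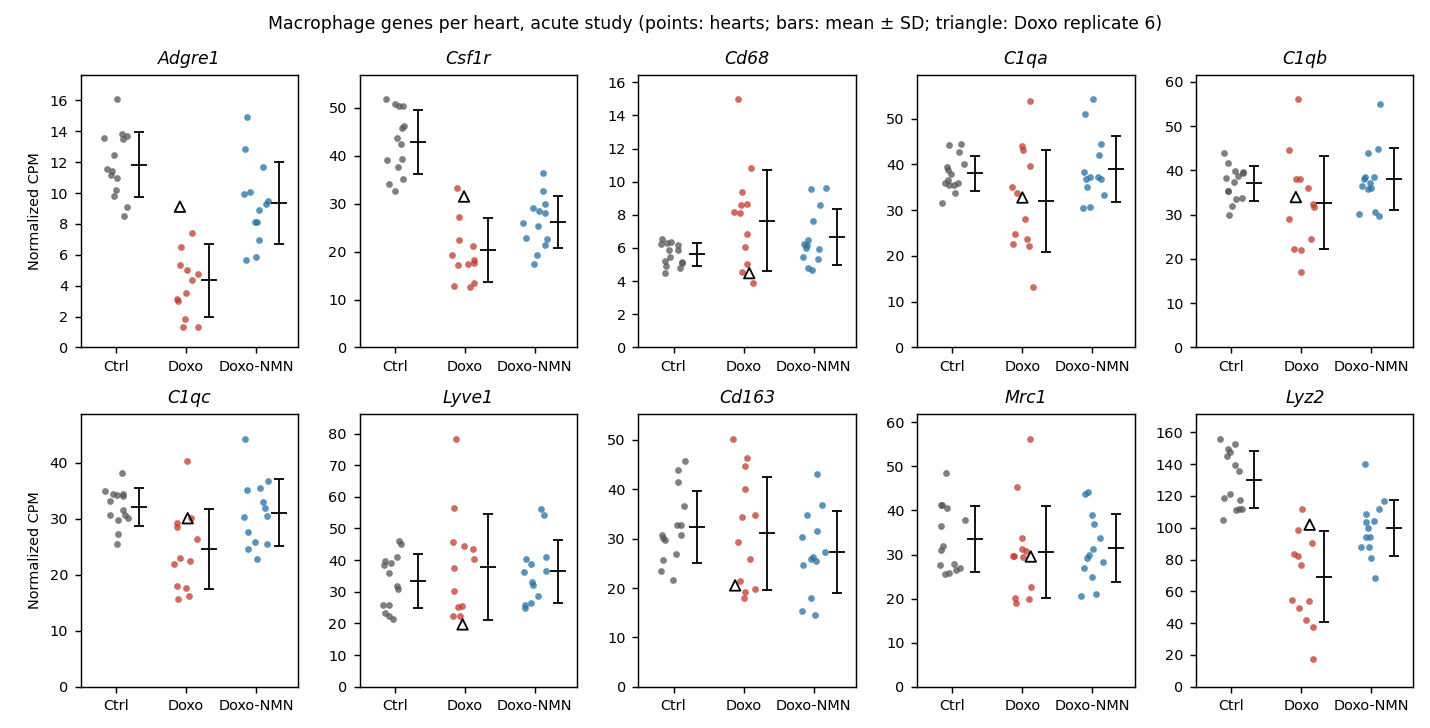
Normalized CPM (y axes) of the 10 macrophage genes in every acute heart, by group (x axes), with means and SD as bars and Doxo replicate 6 as a triangle. For *Adgre1*, *Csf1r* and *Lyz2*, 12 of 13 Doxo hearts sit below all 14 Ctrl hearts, whereas for *Lyve1*, *Cd163* and *Mrc1* Doxo hearts lie on both sides of the Ctrl range, with 3, 7 and 5 of 13 outside it.

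The C1q chains spread widely after Doxo. *C1qa* ranged from 31.5 to 44.4 CPM in Ctrl hearts (median 37.3) and from 13.3 to 53.8 CPM after Doxo (median 32.8), with 6 Doxo hearts below the Ctrl range and 1 above it. *C1qb* ranged from 29.9 to 43.9 CPM (median 37.9) and, after Doxo, from 17.1 to 56.1 CPM (median 32.3), with 5 hearts below and 2 above. Their log2 fold changes were −0.25 (95% confidence interval −0.50 to 0.012, adjusted p = 0.0844) and −0.18 (−0.41 to 0.057, adjusted p = 0.172). *C1qc* ranged from 25.4 to 38.3 CPM (median 32.4) and from 15.7 to 40.4 CPM (median 22.96), with 7 hearts below and 1 above. It fell by 0.38 on the log2 scale (SE 0.111, adjusted p = 0.00259).

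*Cd68* moved in the opposite direction. It ranged from 4.51 to 6.57 CPM in Ctrl hearts (median 5.68) and from 3.87 to 14.97 CPM after Doxo (median 8.14), with 8 Doxo hearts above and 2 below the Ctrl range. It rose by 0.45 on the log2 scale (SE 0.148, adjusted p = 0.00771), and by 0.50 without replicate 6. Other cells have lysosomes too, and *Ctsl*, the lysosomal protease cathepsin L, had medians of 151 CPM in Ctrl and 440.0 CPM in Doxo hearts (log2 fold change 1.68, adjusted p = 3.35e-10). The part of other cells in the *Cd68* value was not tested.

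The scavenger receptors that mark resident cells along vessels did not pass the test. *Lyve1* had medians of 33.8 CPM in Ctrl (21.4 to 46.1) and 37.6 CPM in Doxo hearts (19.7 to 78.4), and a log2 fold change of 0.18 with a 95% confidence interval of −0.17 to 0.53. *Cd163* had medians of 30.8 (21.6 to 45.7) and 29.3 CPM (17.99 to 50.3), with −0.053 and an interval of −0.38 to 0.28. *Mrc1* had medians of 31.5 (25.6 to 48.6) and 29.6 CPM (19.1 to 56.3), with −0.13 and an interval of −0.42 to 0.15. Of the 13 Doxo hearts, those outside the Ctrl range were 1 below and 2 above it for *Lyve1*, 5 below and 2 above it for *Cd163* and 4 below and 1 above it for *Mrc1*, so Doxo hearts spread to both sides of the Ctrl hearts. *Lyve1* is also a gene of lymphatic endothelium, whose list of 6 genes summed to 110.4 to 140.2 CPM in Ctrl and 111 to 144 CPM in Doxo hearts, with *Ccl21a*, a chemokine, lower (log2 fold change −2.17, adjusted p = 5.21e-08) and *Reln*, a secreted matrix protein, higher (1.14, adjusted p = 2.06e-09). Their part in the *Lyve1* values was not tested.

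*Adgre1*, *Csf1r* and *Lyz2* were called lower both within hearts of low and within hearts of high atrial counts. The log2 fold changes of Doxo vs. Ctrl were −1.51, −1.15 and −1.02 in the low and −1.25, −0.88 and −0.69 in the high hearts. *Cd68* had 0.18 (adjusted p = 0.440) in the low and 0.78 (adjusted p = 0.00157) in the high hearts. *C1qc* had −0.56 (adjusted p = 0.00219) in the low and −0.12 (adjusted p = 0.455) in the high hearts. Whether the low and high hearts differ was not tested.

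Each gene was also set against *Csf1r* in the same heart, as a difference of log2 CPM, with limma over all genes. *Adgre1* fell further than *Csf1r* after Doxo, by 0.51 on the log2 scale (SE 0.142, adjusted p = 0.000970), as did 2.11% of the tested genes. The difference for *Lyz2* was 0.077 (SE 0.127, adjusted p = 0.565). The other 7 genes were higher relative to *Csf1r*, from 0.69 for *C1qc* to 1.48 for *Cd68*, as were 86.6% of all tested genes, so this count is no result about macrophages.

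With NMN, *Adgre1* was 2.14 times its level in acute Doxo hearts. It was the only 1 of the 10 genes called in Doxo-NMN vs. Doxo, beside 17.1% of all tested genes called and 8.17% called higher. *Lyz2*, *Csf1r* and *C1qc* rose by less than 1.5-fold, so 4 of the 10 passed on the adjusted p-value alone, beside 53% of all, and the other 6 did not. The median log2 fold change of the 10 genes was 0.25. The same Doxo hearts serve here and in Doxo vs. Ctrl, so a high or low Doxo heart moves both.

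*Adgre1* ranged from 5.67 to 14.9 CPM in Doxo-NMN hearts (median 9.27), 7 of the 13 lying above every Doxo heart. Its log2 fold change against Doxo was 1.099 (SE 0.208, adjusted p = 4.98e-05), 1.24 without Doxo replicate 6, and 1.22 and 0.98 in the hearts with low and high atrial counts. *Csf1r* ranged from 17.5 to 36.4 CPM (median 25.9), with 1 heart above every Doxo heart. It rose by 0.36 (SE 0.129, adjusted p = 0.0187), by 0.52 (adjusted p = 0.0147) in the low hearts, and had 0.16 (adjusted p = 0.446) in the high hearts. Relative to *Csf1r*, *Adgre1* rose by 0.87 (SE 0.145, adjusted p = 1.96e-05), as did 4.59% of all tested genes.

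*Lyz2* ranged from 68.4 to 139.9 CPM in Doxo-NMN hearts (median 99.8), 3 of them above every Doxo heart. It rose by 0.53 (SE 0.163, adjusted p = 0.00660), and was called without Doxo replicate 6 (0.59, adjusted p = 0.00244) or without Doxo replicate 1 (0.60). It had 0.71 (adjusted p = 0.0161) in the low and 0.31 (adjusted p = 0.161) in the high hearts. *C1qc* ranged from 22.8 to 44.3 CPM (median 30.6) and rose by 0.34 (SE 0.113, adjusted p = 0.0118). The log2 fold changes of the 6 genes that did not pass were 0.28 for *C1qa*, 0.22 for *C1qb*, 0.044 for *Mrc1*, −0.054 for *Lyve1*, −0.19 for *Cd163* and −0.20 for *Cd68*.

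**Figure D3:**
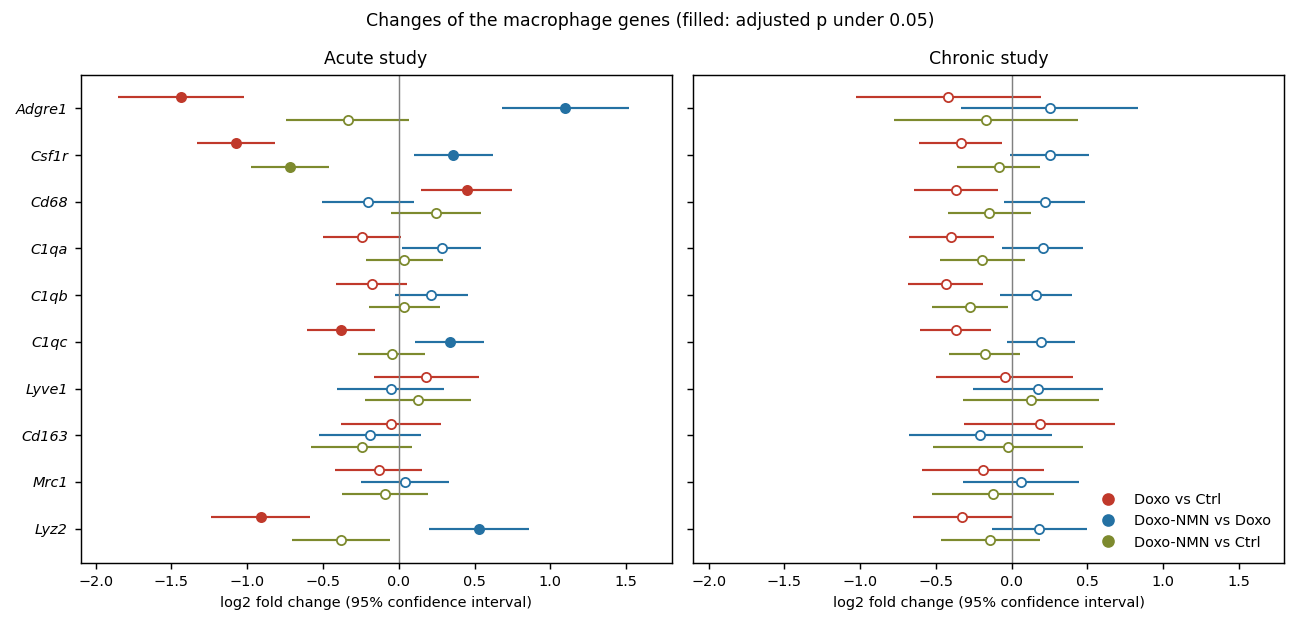
Log2 fold changes (x axes) of the 10 genes (y axis) with 95% confidence intervals in the 3 comparisons of the acute and of the chronic study, filled where the adjusted p-value is under 0.05. In the acute study *Adgre1*, *Csf1r* and *Lyz2* are filled far below 0 in Doxo vs. Ctrl and *Csf1r* alone is filled in Doxo-NMN vs. Ctrl, at −0.71, whereas all chronic points are open.

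Compared with Ctrl hearts, Doxo-NMN hearts had less *Csf1r*, the only 1 of the 10 genes called, beside 7.11% of all tested genes called and 26% passing on the adjusted p-value alone. In 11 of 13 Doxo-NMN hearts it lay below every Ctrl heart, with a log2 fold change of −0.71 (SE 0.127, adjusted p = 8.27e-05). *Adgre1* had −0.34 (95% confidence interval −0.74 to 0.067, adjusted p = 0.216) and *Lyz2* −0.38 (−0.71 to −0.059, adjusted p = 0.0722). The other 7 genes had −0.24 for *Cd163* to 0.25 for *Cd68*. Relative to *Csf1r*, *Adgre1* was 0.36 higher than in Ctrl hearts (adjusted p = 0.0176), as were 85.8% of all tested genes.

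Over the hearts of a group the 10 genes varied together. Pearson's r of log2 CPM was above 0 in 44 of 45 pairs of genes over the 14 Ctrl hearts and in all 45 over the 13 Doxo and over the 13 Doxo-NMN hearts, with medians of 0.641, 0.610 and 0.644. The genes of a heart share its library and tissue makeup, so these are descriptions. The closest pair was *Csf1r* and *Lyz2* in Ctrl (0.927), *C1qb* and *C1qc* in Doxo (0.951) and *C1qa* and *C1qb* in Doxo-NMN hearts (0.945). The lowest r was −0.0921 for *Cd68* and *Lyve1* in Ctrl, 0.0288 for *Adgre1* and *Cd68* in Doxo and 0.250 for *Csf1r* and *Lyve1* in Doxo-NMN hearts.

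In the chronic study none of the 10 genes was called in any comparison, here at an adjusted p-value under 0.05 with no fold limit. Of all 14960 tested genes the shares called were 0.0602% for Doxo vs. Ctrl, 0% for Doxo-NMN vs. Doxo and 0.0401% for Doxo-NMN vs. Ctrl, and DESeq2 and limma's voom called none of the 10 either. In Doxo vs. Ctrl 9 of the 10 genes had a log2 fold change below 0, beside 50.1% of all tested genes, with a median of −0.35. By edgeR 5 of the 10 had an unadjusted p-value under 0.05, as did 7.85% of all. They were the C1q chains, *Cd68* and *Csf1r*.

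*C1qb* had 37.2, 36.8, 33.5, 30.9 and 29.5 CPM in the 5 chronic Ctrl hearts and 19.1 to 31.2 CPM in the 6 Doxo hearts (median 24.9), of which 5 lay below every Ctrl heart. Its log2 fold change was −0.44 (95% confidence interval −0.69 to −0.19, adjusted p = 0.418). *C1qa* had 70.3, 41.6, 40.5, 42.97 and 40.5 CPM in Ctrl hearts and 31.4 to 40.3 CPM after Doxo (median 35.4), so the groups did not overlap, as in 0.922% of all tested genes, though the nearest hearts were almost level. The log2 fold change was −0.40 (−0.68 to −0.12, adjusted p = 0.515). *C1qc* had 54.8, 37.8, 40.4, 38.2 and 39.3 CPM in Ctrl hearts and 27.4 to 39.8 CPM after Doxo (median 32.03), with −0.37 (adjusted p = 0.453).

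*Csf1r* had 31.4, 41.8, 34.2, 31.002 and 34.7 CPM in chronic Ctrl hearts, 22.5 to 32.8 CPM after Doxo (median 27.6) and 26.9 to 41.9 CPM with NMN (median 31.7). In Doxo vs. Ctrl 5 of 6 hearts lay below every Ctrl heart, with a log2 fold change of −0.34 (−0.61 to −0.064, adjusted p = 0.579). *Cd68* had 8.495, 7.84, 6.51, 5.58 and 7.24 CPM in Ctrl hearts and 4.71 to 6.11 CPM after Doxo (median 5.67), with −0.36 (adjusted p = 0.567). *Adgre1* had 4.96, 13.03, 6.41, 5.05 and 7.2998 CPM in Ctrl hearts, replicate 2 standing above the others, and 2.47 to 8.11 CPM after Doxo (median 5.501). Its log2 fold change was −0.42 (adjusted p = 0.729) with all hearts and −0.10 without Ctrl replicate 2. *Lyz2* had 100.4, 104, 97.2, 79.98 and 83.7 CPM in Ctrl hearts and 53.8 to 89.02 CPM after Doxo (median 75.6), with −0.32 (adjusted p = 0.634).

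Of the scavenger receptors, *Mrc1* had a log2 fold change of −0.19 and *Lyve1* of −0.046 in chronic Doxo vs. Ctrl. *Cd163* had 0.18, with 28.4 CPM in Doxo replicate 2 as the highest Doxo heart, and −0.067 without it. All 10 genes were then below 0, as were 7556 of 14908 tested genes, with a median of −0.28, and none was called. A list of 20 further macrophage genes was below 0 in all 20 with all hearts, beside 50.1% of all tested genes. Its medians were −0.22 with and −0.18 without Doxo replicate 2, and none passed the test. With all hearts, the 6 blood endothelium genes were below 0 too, and the 3 tested lymphocyte genes above it. Genes of a heart share its tissue makeup, so these signs are not separate observations.

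**Figure D4:**
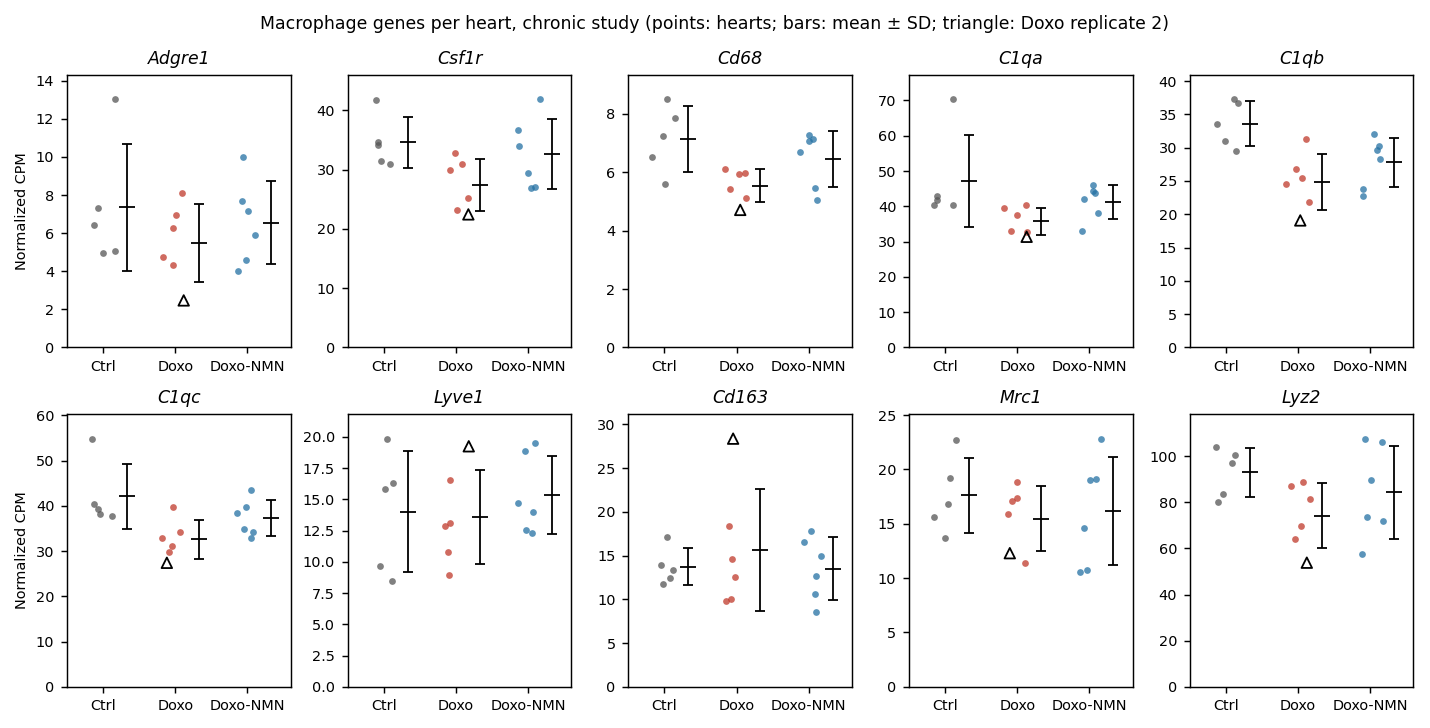
Normalized CPM (y axes) of the 10 macrophage genes in every chronic heart, by group (x axes), with means and SD as bars and Doxo replicate 2 as a triangle. For *C1qa* all 6 Doxo hearts sit below all 5 Ctrl hearts, Ctrl replicate 1 being highest at 70.3 CPM.

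In chronic Doxo-NMN vs. Doxo 9 of the 10 genes had a log2 fold change above 0, as did 7605 of 14960 tested genes. The 9 ran from 0.062 for *Mrc1* to 0.25 for *Adgre1*, and *Cd163* had −0.21. Without Doxo replicate 2, *Adgre1* had 0.10, *Mrc1* 0.0016 and *Cd163* 0.042, so the highest value, no longer that of *Adgre1*, and the sign of *Cd163* rest on that heart. With all hearts no gene had an unadjusted p-value under 0.05 by edgeR, beside 2.95% of all tested genes, and the comparison shares its Doxo hearts with Doxo vs. Ctrl. Against Ctrl hearts *C1qb* had −0.27 (edgeR, unadjusted p = 0.0321, adjusted p = 0.999).

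The Doxo effect was compared between the studies with edgeR's interaction term, in which 19.3% of 14965 tested genes and 2 of the 10, *Csf1r* and *Cd68*, passed. The 2 of 10 are near the background. *Csf1r* was lower by 0.74 on the log2 scale in the acute study (acute minus chronic −0.74, SE 0.227, adjusted p = 0.0223). *Cd68* was higher by 0.81 (SE 0.261, adjusted p = 0.0283), and by 0.74 without chronic Ctrl replicate 1, where it no longer passed. *Adgre1* had −1.02 (adjusted p = 0.0749) and *Lyz2* −0.59 (adjusted p = 0.160). *Adgre1* passed when chronic Ctrl replicate 2 (−1.33), chronic Doxo replicate 2 (−1.16), acute Doxo replicate 6 (−1.15) or acute Doxo replicate 7 (−1.11) was left out. Dose schedule, day of collection, age, mouse supplier, chow and sequencing site differ between the studies and cannot be told apart. Atrial marker genes differed too, with median sums of 2451 CPM (43.9 to 4922) in acute and 89.0 CPM (69.1 to 205) in chronic Ctrl hearts.

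The genes of both ligands of CSF1R were also lower in acute Doxo than in Ctrl hearts. A link between their values and those of *Csf1r* was not tested. *Csf1*, which stromal and endothelial cells make, had medians of 41.3 CPM (33.99 to 56.5) in Ctrl, 24.7 (17.8 to 45.2) after Doxo and 34.7 (21.5 to 40.5) with NMN. It was called lower after Doxo (log2 fold change −0.61, SE 0.121, adjusted p = 3.50e-05), and had 0.21 (adjusted p = 0.154) in Doxo-NMN vs. Doxo. *Il34*, the other ligand, had medians of 2.17, 1.47 and 1.96 CPM and fell by 0.51 after Doxo (adjusted p = 0.00706). *Csf2rb*, the shared receptor chain of GM-CSF and IL-3, went the other way, with 1.03 to 2.47 CPM in Ctrl and 1.47 to 27.2 CPM in Doxo hearts (2.501, adjusted p = 1.76e-08), and was lower again with NMN (−1.99, adjusted p = 5.90e-06).

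Other genes of resident cardiac macrophages moved further than most of the 10. Of 16 tested genes in a list of 17, 10 were called lower and 2 higher in acute Doxo vs. Ctrl, with a median log2 fold change of −0.94. Of all tested genes 15.4% were called lower and 14.7% higher. *Retnla*, a secreted product of alternatively activated macrophages, ranged from 2.24 to 6.25 CPM in Ctrl and from 0 to 1.35 CPM in Doxo hearts, with no overlap, as in 0.906% of all tested genes. *Mgl2*, a galactose-type lectin, had medians of 10.4 and 1.18 CPM (−2.34, adjusted p = 1.26e-07), and *Stab1*, a scavenger receptor, 94.2 and 32.03 CPM (−1.25, adjusted p = 7.11e-09). In 8 of 13 Doxo hearts *Gas6*, a gene of this list named after its values were seen, lay above every Ctrl heart. With NMN 7 genes of this list were called higher than in Doxo hearts and none lower, beside 8.17% and 8.88% of all tested genes. Among the 7 were *Mgl2* (1.75, adjusted p = 4.62e-05) and *Stab1* (0.82, adjusted p = 3.63e-05), while *Retnla* stayed at 0.103 to 1.27 CPM. Without Doxo replicate 6, 10 were called lower and 3 higher after Doxo, and 8 higher and 1 lower with NMN.

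All 8 genes of the antigen presentation list, mostly of MHC class II, were called lower in acute Doxo vs. Ctrl, beside 15.4% of all tested genes. Their median log2 fold change was −2.63, and 6 were called higher with NMN, beside 8.17% of all. The part of other cell types in these values was not tested. *Ciita*, the transactivator of class II genes, had medians of 2.01 CPM in Ctrl, 0.296 after Doxo and 0.918 with NMN (−2.404 in Doxo vs. Ctrl, adjusted p = 1.00e-08). The list of 20 further macrophage genes was split, with 4 called higher, 4 called lower and a median of −0.016. Of all tested genes 14.7% were called higher and 15.4% lower. *Cx3cr1*, the fractalkine receptor, had medians of 4.36 and 0.559 CPM (−1.93, adjusted p = 2.46e-05), and *Aif1*, which encodes IBA1, 1.48 and 0.493 CPM (−1.25, adjusted p = 0.000223). In Doxo-NMN vs. Doxo the list was split again, with 3 called higher and 4 lower, beside 8.17% and 8.88% of all tested genes. *Aif1* was higher with NMN (1.11, adjusted p = 0.00160), *Cd14*, the co-receptor for endotoxin, was lower (−1.48, adjusted p = 4.12e-05), as was *Irf8*, a myeloid transcription factor (−1.27, adjusted p = 1.30e-05). In Doxo hearts without NMN, *Cd14* lay above every Ctrl heart in 7 of 13 and below every one in 4. *Irf8* lay above every Ctrl heart in 5 of these 13 and below every one in 2.

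Of 13 tested genes in a list of 15 for monocytes and recruited macrophages, 8 were called higher and 3 lower in acute Doxo vs. Ctrl, with a median log2 fold change of 0.95. The shares of all tested genes were 14.7% higher and 15.4% lower. *Chil3*, a chitinase-like protein of activated myeloid cells, rose from 0 to 0.252 CPM in Ctrl to 0 to 59.5 CPM in Doxo hearts (adjusted p = 4.42e-11) and stood at 0.548 to 6.97 CPM with NMN. *Ly6c2*, which marks inflammatory monocytes, had medians of 4.01 and 9.12 CPM (1.03, adjusted p = 1.85e-09). *Gpnmb*, a lysosomal glycoprotein of lipid-laden macrophages, had 1.96 and 6.83 CPM (2.33, adjusted p = 6.71e-07). *Ccr2*, the chemokine receptor of recently entered cells, named after its values were seen, fell instead. It ranged from 1.95 to 6.695 CPM in Ctrl hearts and from 0.278 to 2.87 CPM after Doxo, 10 of 13 hearts lying below every Ctrl heart (log2 fold change −1.78, adjusted p = 1.38e-06). With NMN it ranged from 0.685 to 2.08 CPM, with 0.12 (adjusted p = 0.755) against Doxo hearts. With NMN 4 genes of the list were called lower than in Doxo hearts and none higher, beside 8.88% and 8.17% of all tested genes.

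**Figure D5:**
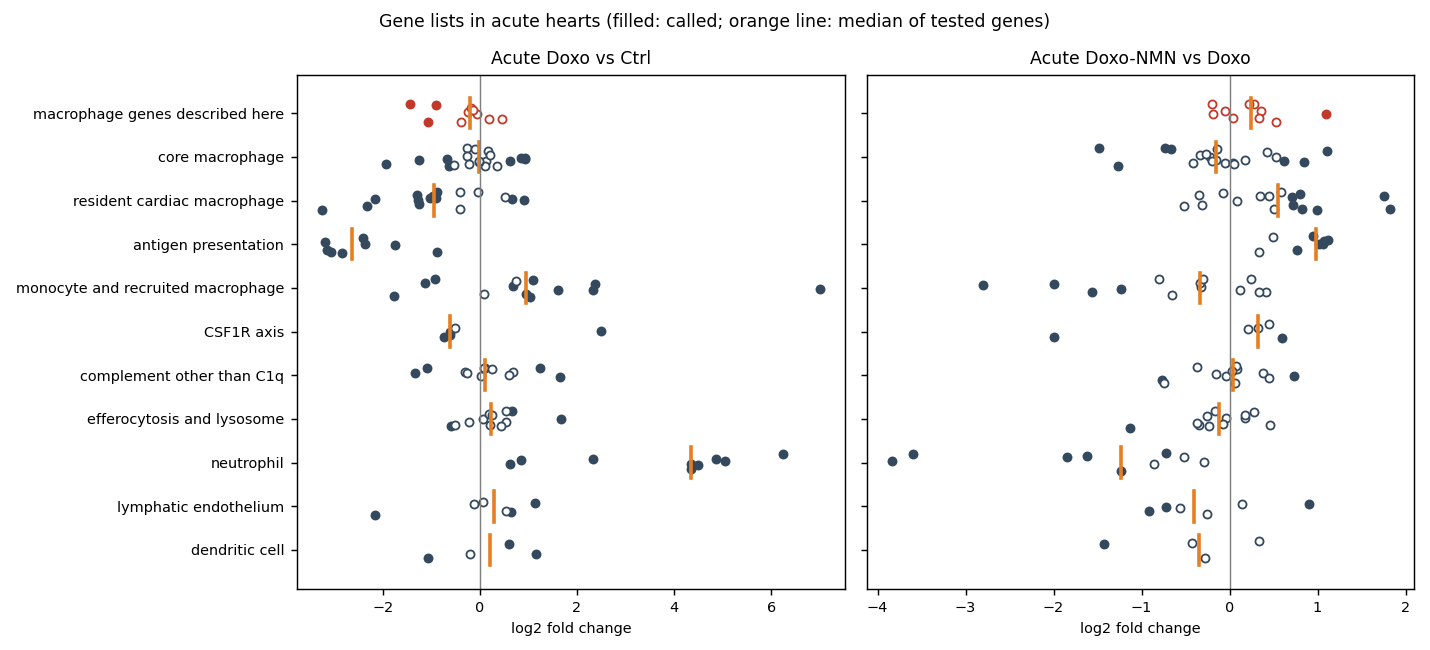
Log2 fold changes (x axes) of the 10 genes and of further gene lists (y axis) in acute Doxo vs. Ctrl and Doxo-NMN vs. Doxo, 1 point per tested gene, filled where called, with the median as an orange line. Resident and antigen presentation genes lie mostly below 0 after Doxo, with medians of −0.94 and −2.63, and neutrophil genes above it, with 4.36.

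Complement genes other than C1q were called higher in 2 and lower in 2 of 12 tested genes in acute Doxo vs. Ctrl, near the 30.1% called of all tested genes. *C4b*, which acts just after C1 in the classical pathway, had 7.19 to 48.1 CPM in Ctrl and 8.72 to 178 CPM in Doxo hearts (1.65, adjusted p = 0.000112), whereas *C3ar1*, a receptor for the C3a fragment, had −1.098 (adjusted p = 3.75e-06) and *Cd55*, which breaks down complement convertases, −1.35 (adjusted p = 1.03e-06). Among other cell types, genes were called lower in 3 of 6 for fibroblasts and 1 of 6 for blood endothelium. For lymphocytes 3 of 3 tested genes in a list of 7 were called lower. For dendritic cells 4 genes in a list of 6 were tested, of which 1 was called lower and 2 higher. Beside these stand 15.4% called lower and 14.7% called higher of all tested genes. In the chronic study no gene of any list passed the test.

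Outside the macrophage lists, the 10 genes whose log2 CPM was most like the mean z-score of the 10 macrophage genes over the 40 acute hearts were *C1s1* (r = 0.856), *Scpep1* (0.854), *Myof* (0.830), *Meg3* (0.822), *Gabra3* (0.812), *Cfp* (0.810), *Colec12* (0.809), *Ccdc80* (0.805), *Ecm1* (0.803) and *Tmem119* (0.802), of 14173 compared. These hearts pool 3 groups and share tissue makeup across genes, and no test was made. *C1s1* encodes the protease C1s that binds C1q, and *Cfp* encodes properdin, which myeloid cells secrete.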

How the data were processed

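Poly(A) RNA of 57 hearts from 2 studies was sequenced. The authors mapped reads to mm10 with STAR (2.7.3a in the submitters' processing notes) and counted them with featureCounts (2.0.0). The deposited values are raw counts per gene, without normalization. Annotation and strand setting are not given in the sources used here. A median of 73.6% of the acute and 40.3% of the chronic counts from 1 to 20 were even numbers. Whether acute reads were counted 2 times was not tested, and if so 3 acute counts stand for fewer reads.

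Here low genes were removed (filterByExpr), libraries were TMM-scaled, and each study was fitted as a whole, its 3 groups in 1 model, with edgeR 4.0.16 (quasi-likelihood F-test, R 4.3.3). Benjamini-Hochberg adjustment ran over all tested genes. A call needed an adjusted p-value below 0.05 and, in acute hearts, 1.5-fold. Differences from *Csf1r* used limma 3.58.1 (prior count 2), correlations log2(CPM + 0.1), and exon lengths and positions GENCODE (GRCm38). Hearts were grouped by their labels, which give each as a separate heart. The code was tested on simulated data. Alternatives were DESeq2 1.42.0, limma's voom, RLE scaling, other filters, only the groups compared, the replicate number as a block, other fold limits, hearts with low or high atrial counts, a prior count of 0.5 and leaving out each heart. Acute counts divided by 2 were added after seeing the data. Limits at 3 counts cover counting error only. No repeated library was found among 247 acute and 40 chronic pairs of hearts of the same group (lowest chi-square per gene 10.4 acute, 5.49 chronic). Pairs from different groups were not compared.

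The macrophage genes and lists were chosen with earlier results of these data known. Named are the 10 genes, *Csf1* and *Il34*, genes among the up to 3 with the smallest adjusted p of each list in acute Doxo vs. Ctrl and Doxo-NMN vs. Doxo, list genes called in the chronic study (there were none), and the 10 most like the macrophage genes. *Hmgxb3* and *Lyz1* are named because reads may be shared. *Ccr2* and *Gas6* were named after their values were seen. A further list result is not reported here.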

Additional observations from a re-analysis of the deposited data

Results flagged for a closer look

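Of 30 groups of hearts looked at (10 genes in the 3 chronic groups, with 5 or 6 hearts each), 2 held a heart far from the others, and chance gives about 1 in 20. In chronic Ctrl replicate 1, *C1qa* was at 70.3 CPM and *C1qc* at 54.8 CPM, each the highest of the Ctrl hearts by a wide gap. Without this heart the log2 fold change of chronic Doxo vs. Ctrl was −0.21 for *C1qa* and −0.26 for *C1qc*, and neither was called with or without it.

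The Doxo effect differed between the acute and the chronic study, by edgeR's interaction term, for *Csf1r* (−0.74 on the log2 scale, acute minus chronic, adjusted p = 0.0223) and for *Cd68* (0.81, adjusted p = 0.0283). As 19.3% of all tested genes passed as well, this is near the background. *Cd68* no longer passed without chronic Ctrl replicate 1.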

How the results depend on the processing

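Of 2724 values of the 10 genes under other settings, 2656 kept their direction and their side of the threshold, 52 changed sign, 15 passed only there and 1 passed no longer. Where the cause of a change is not in the setting itself, the cause was not tested. Dividing the acute counts by 2 changed no direction or call of the 10 genes in the acute comparisons. In acute Doxo-NMN vs. Doxo, 2 of the 10 genes were called with voom, 2 with the replicate number as a block, 2 in hearts with low atrial counts and 4 without the fold limit, against 1. In acute Doxo vs. Ctrl 5 were called without the fold limit, against 3. Over all genes, those called without the fold limit were 9694 in acute Doxo vs. Ctrl, 7554 in Doxo-NMN vs. Doxo and 3705 in Doxo-NMN vs. Ctrl. The last comparison, with 1012 called in all, gave 1698 without a filter on low counts, 647 with at least 10 counts in every heart, and 575 and 599 in hearts with low and high atrial counts. Chronic Doxo vs. Ctrl (9 called) gave 24 by DESeq2, 54 by voom, 15 without a filter and 0 with at least 10 counts in every heart, and chronic Doxo-NMN vs. Ctrl (6 called) gave 26 by voom and 0 with at least 10 counts. Signs turned with voom in acute Doxo-NMN vs. Ctrl for *C1qa* (−0.032) and *C1qb* (−0.025), in chronic Doxo vs. Ctrl for *Lyve1* (0.14) and *Cd163* (−0.12), and in chronic Doxo-NMN vs. Doxo for *Cd163* (0.090) and *Mrc1* (−0.10). In hearts with low atrial counts they turned in Doxo vs. Ctrl for *Cd163* (0.067) and *Mrc1* (0.11), in Doxo-NMN vs. Doxo for *Lyve1* (0.19) and *Mrc1* (−0.048), and in Doxo-NMN vs. Ctrl for *Mrc1* (0.067). In hearts with high atrial counts they turned in Doxo vs. Ctrl for *C1qa* (0.061) and *C1qb* (0.095) and in Doxo-NMN vs. Ctrl for *C1qc* (0.017). By DESeq2 acute minus chronic was 0.0082 for *C1qc*. None of these genes had passed the test in those comparisons.

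Leaving out each heart in turn, the 10 genes held 1 to 2 called genes in acute Doxo-NMN vs. Doxo and 1 to 3 in the comparison of the studies, and over all genes 2073 to 4604 were called in the latter, the highest count being that without acute Doxo replicate 6. In chronic Doxo vs. Ctrl 5 to 11 genes were called, the lowest count without Ctrl replicate 2, 3 or 5, and in chronic Doxo-NMN vs. Ctrl 4 to 6. Values that crossed 0 ranged in acute Doxo-NMN vs. Doxo over −0.12 to 0.081 for *Lyve1* and −0.0050 to 0.15 for *Mrc1*, and in acute Doxo-NMN vs. Ctrl over −0.010 to 0.064 for *C1qa* and −0.017 to 0.064 for *C1qb*. In chronic Doxo vs. Ctrl they ranged over −0.18 to 0.12 for *Lyve1* and −0.067 to 0.29 for *Cd163*, in chronic Doxo-NMN vs. Doxo over −0.32 to 0.042 for *Cd163* and −0.065 to 0.16 for *Mrc1*, and in chronic Doxo-NMN vs. Ctrl over −0.33 to 0.14 for *Adgre1*, −0.12 to 0.080 for *Cd163* and −0.0093 to 0.29 for *Lyve1*. Acute minus chronic ranged over −0.041 to 0.22 for *C1qa*, −0.13 to 0.051 for *C1qc*, −0.065 to 0.12 for *Mrc1* and −0.35 to 0.016 for *Cd163*.

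Replicate numbers do not pair the hearts. Same-numbered hearts had a median correlation of deviations of 0.0605 over 39 acute and 0.0223 over 16 chronic pairs, and 4 of 40 acute and 3 of 17 chronic hearts correlated best with their own number. With the replicate block 4242, 2456 and 963 genes were called in the acute comparisons, and 7, 0 and 4 in those of the chronic study (in the order Doxo vs. Ctrl, Doxo-NMN vs. Doxo, Doxo-NMN vs. Ctrl), and of the 10 genes only *Lyz2* in acute Doxo-NMN vs. Doxo changed its call.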
